A study of Mus musculus with 12 samples.

Results

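Antigen receptor loci are the stretches of the genome in which B and T lymphocytes assemble their receptor genes. The peaks described here are those of a bone marrow ATAC-seq table with a centre in one of 6 windows of GRCm38, so the members were chosen by position and not by accessibility. The windows were chr12 from 113.2 to 116.1 Mb for the immunoglobulin heavy chain locus (Igh) and chr6 from 67.5 to 70.8 Mb for the kappa light chain locus (Igk). The lambda light chain locus (Igl) was taken as chr16 from 19.0 to 19.3 Mb. The T cell receptor windows were chr14 from 52.4 to 54.3 Mb (Tcra/Tcrd), chr6 from 40.85 to 41.6 Mb (Tcrb) and chr13 from 19.15 to 19.4 Mb (Tcrg). Of 75281 peaks in the table, 446 were members: 242 in Igh, 114 in Igk, 22 in Igl, 42 in Tcra/Tcrd, 17 in Tcrb and 9 in Tcrg.

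Bone marrow of the NZO/HILtJ mouse strain, which becomes obese and often diabetic, was the labelled tissue, and the labels name no treatment or engineered allele. The groups were 3 females aged 3 months, 3 males aged 3 months, 3 females aged 18 months and 3 males aged 18 months, with 1 library per mouse. ATAC-seq uses a transposase that cuts exposed DNA, so the number of reads over a peak measures how accessible its chromatin is. The comparison asks how accessibility of the receptor loci differs with age.

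The labels' protocol text describes a sort of CD3e and CD8 positive T cells into naive and memory cells, while the sample labels name bone marrow alone. Cd3e, Cd8a, Cd8b1 and Bcl11b, which mark such T cells, had no peak within 3 kb, while the other 8 of 12 T cell marker genes had one, with Cd3g at 56.8 to 69.1 CPM over the 12 libraries. All 10 erythroid, all 10 myeloid and all 10 B cell marker genes had a peak too. Which cells the libraries hold was not settled by these markers. The tissue is named after the sample labels below. Single mice are given by their label numbers, such as BM-35. Total counts in peaks ranged from 7668099 to 12756647 per library. The 18-month females were sequenced in run 14 and the 18-month males in run 15, and the 3-month mice in runs 28 to 31, so sequencing run and age cannot be told apart. At 18 months run and sex cannot be told apart either, which bears on every age effect given for 1 sex and on the test of their difference.

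Each receptor locus holds an array of variable (V) segments, then joining (J) segments, in some loci with diversity (D) segments before them, and constant (C) genes. The RAG recombinase joins 1 segment of each kind and deletes or inverts the DNA between them. Enhancers between and behind the C genes open the locus in the right lineage, and CTCF and cohesin fold the V array toward the J segments. In bone marrow, B cell progenitors rearrange Igh first and then Igk or Igl, while T cell receptor loci rearrange mainly in the thymus. In a mixed tissue, fewer cells of a type and less accessibility per cell cannot be told apart. V segments are many and alike, so reads over them may be split among copies, and NZO is another strain than the reference.

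The sequences shown are RefSeq promoter windows on GRCm38.p6, running from 250 bases before to 50 bases after a gene's start, that overlap member peaks. The table held no such window for V, D, J or C segments, and those it held belong to non-coding or neighbouring genes. The first 2 are the promoters of long non-coding RNA genes inside the Igk J and C region whose peaks lost accessibility with age. They are Gm46961 (minus strand, chr6:70718827-70719126) and Gm30211 (plus strand, chr6:70728963-70729262). Capitals mark the 50 bases after the start, and neither window held the octamer or the E-box described next.
Gm46961: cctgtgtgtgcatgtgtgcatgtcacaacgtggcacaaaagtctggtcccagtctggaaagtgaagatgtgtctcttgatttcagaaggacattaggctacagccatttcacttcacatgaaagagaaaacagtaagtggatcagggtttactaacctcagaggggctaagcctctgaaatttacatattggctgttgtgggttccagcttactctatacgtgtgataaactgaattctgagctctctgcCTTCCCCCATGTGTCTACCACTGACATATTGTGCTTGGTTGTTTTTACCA
Gm30211: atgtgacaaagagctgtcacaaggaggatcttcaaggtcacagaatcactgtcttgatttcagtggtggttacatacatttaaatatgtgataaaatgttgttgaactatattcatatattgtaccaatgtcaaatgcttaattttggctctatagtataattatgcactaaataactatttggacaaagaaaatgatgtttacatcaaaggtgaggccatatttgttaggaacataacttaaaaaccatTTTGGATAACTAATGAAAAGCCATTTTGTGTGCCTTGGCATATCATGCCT

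Immunoglobulin V promoters are known for an octamer that binds Oct factors. A search for ATGCAAAT on both strands, and for the E-box CAGCTG, which reads the same on both strands, covered the promoter windows in member peaks. The octamer stood in 1.74% and the E-box in 16.3% of all 32851 promoter windows of the table. Of the 14 windows in member peaks, the E-box stood in 2, that of Gm38573, a gene of the Igk V array, and 1 of Abhd4 beside Tcra/Tcrd, and neither peak passed the test (adjusted p = 0.434 and 0.0607). The window of LOC108169192, a long non-coding RNA gene of the Igk V array (minus strand, chr6:68880650-68880949), held the only octamer of the 14, shown in capitals. It begins at base 182 of the window. Its peak, chr6:68880710-68881263, had a log2 fold change with age of -0.43 that did not pass the test (adjusted p = 0.126).
LOC108169192: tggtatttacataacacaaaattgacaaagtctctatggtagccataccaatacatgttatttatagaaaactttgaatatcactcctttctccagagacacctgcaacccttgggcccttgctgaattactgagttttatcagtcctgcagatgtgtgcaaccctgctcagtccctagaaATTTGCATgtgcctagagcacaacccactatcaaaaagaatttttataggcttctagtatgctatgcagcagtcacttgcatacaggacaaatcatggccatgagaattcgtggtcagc

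The last pair shows how alike sequences of the Igh V array can be. Gm30948 (plus strand, chr12:115262401-115262700) and Gm40900 (plus strand, chr12:115703580-115703879) are long non-coding RNA genes of that array. Their promoter windows share a run of 62 identical bases, shown in capitals.
Gm30948: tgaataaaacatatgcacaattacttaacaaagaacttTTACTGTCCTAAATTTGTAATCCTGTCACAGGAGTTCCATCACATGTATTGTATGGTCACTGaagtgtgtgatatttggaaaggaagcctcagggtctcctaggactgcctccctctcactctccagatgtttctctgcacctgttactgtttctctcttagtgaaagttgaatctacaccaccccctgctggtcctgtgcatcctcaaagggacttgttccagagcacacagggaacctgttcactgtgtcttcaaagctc
Gm40900: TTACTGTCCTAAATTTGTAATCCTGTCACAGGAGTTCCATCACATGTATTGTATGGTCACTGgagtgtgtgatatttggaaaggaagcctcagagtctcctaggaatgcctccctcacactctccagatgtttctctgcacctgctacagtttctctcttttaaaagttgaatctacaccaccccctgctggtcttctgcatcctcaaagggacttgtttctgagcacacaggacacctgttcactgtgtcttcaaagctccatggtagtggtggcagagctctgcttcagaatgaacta
Their peaks, chr12:115262472-115262982 and chr12:115703436-115704020, had log2 fold changes of -0.20 (adjusted p = 0.697) and 0.34 (adjusted p = 0.192), and neither passed the test.

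Accessibility was given as CPM, the count scaled to the library's total in peaks. Whether the ages overlap was read from these CPM, while the age effects also use TMM factors, which correct the library sizes. Those factors were 0.983 to 1.05 at 18 months and 0.929 to 1.03 at 3 months, so a narrow separation or overlap can change with them. With CPM divided by them, the peaks by Iglc3 and over Iglj2 given below would overlap and that over Trgv7 would not. Age effects are log2 fold changes of 18 over 3 months with sex as covariate, so that 1 is a 2-fold difference. A peak was called when its adjusted p from edgeR's quasi-likelihood test over all 75164 tested peaks was under 0.05. Of the 446 members, 431 passed the filter on low counts and 15 did not, of which 13 were in the Igh V part.

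With age, 56 of 431 tested members rose and 24 fell, and 351 did not pass the test. Over all tested peaks 21% were called, 9.43% as higher and 11.6% as lower, against 13% and 5.57% of the members. The median log2 fold change was 0.14 over the members and 0.02 over all tested peaks. The calls were unevenly spread over the loci: the Igh V array held 42 of the 56 members that rose, and Igk held 18 of the 24 that fell. With library totals in place of TMM factors, 82 members (19.0%) were called higher and 18 (4.18%) lower, against 14.9% and 8.82% of all tested peaks. The CPM of the 6 older and the 6 younger mice did not overlap for 21 members higher at 18 months and 2 lower, and over all tested peaks for 3.74% higher and 3.99% lower.

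**Figure D1:**
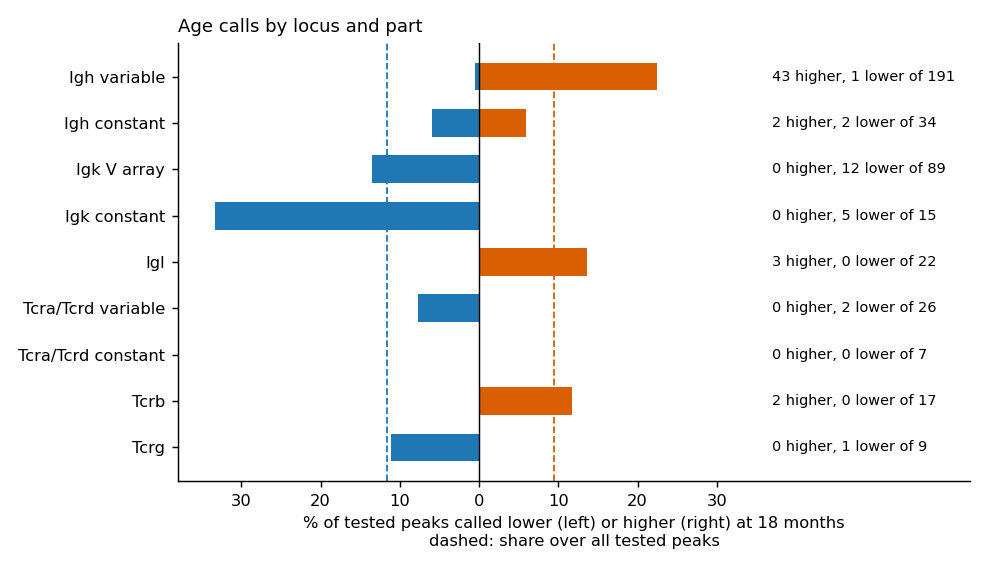
Share of tested peaks called higher (right, orange) or lower (left, blue) at 18 months in each locus and part, with the counts at the right and, dashed, the shares over all tested peaks (9.43% higher, 11.6% lower). The Igh variable part lies beyond the dashed line on the higher side with 43 of 191 peaks and the Igk constant part on the lower side with 5 of 15. Igl (3 of 22) and Tcrb (2 of 17) pass the line on the higher side by less, as does the Igk V array (12 of 89) on the lower side.

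Markers of other cell types moved with age in the same libraries. All 10 erythroid genes fell, with a summed level of 330 to 355 CPM at 18 months against 547 to 669 at 3 months. Of 10 myeloid genes 5 rose (Ltf, Ngp, S100a8, S100a9 and Camp), with 316 to 382 against 246 to 338 CPM. Of 10 B cell genes 2 fell (Pax5 and Cr2) and 0 rose, with 192 to 255 against 216 to 245.3 CPM. The B cell list thus overlapped between the ages, while the erythroid list did not. Of 8 T cell genes with a peak Cd3d rose and Lck fell, and the summed level was 181 to 205 against 170 to 194 CPM. Of 7 plasma cell genes Irf4 rose and Sdc1 fell, and of 4 NK cell genes with a peak 0 were called, as for Ncr1 and Klrb1c no peak was found. The part of these shifts in the results below was not tested.

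Igh encodes the heavy chain, the first receptor chain a B cell progenitor assembles. Its V part ran from the outer edge of the window to the V segment nearest the D segments and held 204 peaks, of which 191 were tested. In it 43 peaks rose (22.5%) and 1 fell (0.52%), against 9.43% and 11.6% of all tested peaks. A log2 fold change above 0 was found for 173 of 191, against 53.0% of all tested peaks. The median log2 fold change was 0.25, with 0.18 in females and 0.36 in males. Single peaks moved by little, and most of them moved upward. In 2 of the 12 fits that left out 1 library the count fell by more than 1.5 times, to 26 without the 18-month male BM-38 and to 28 without the 3-month female BM-245.

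Summed over its 204 peaks, the Igh V part stood at 2164 ± 117 CPM (SD, n = 3) in 18-month females against 1868 ± 144 CPM (SD, n = 3) in 3-month females. In males it was 2494 ± 172 CPM (SD, n = 3) at 18 months against 1837 ± 268 CPM (SD, n = 3) at 3 months. Over both sexes the sums were lowest 2029, median 2268 and highest 2600 CPM at 18 months, and lowest 1553, median 1851 and highest 2084 CPM at 3 months. The ages overlapped, since the highest 3-month sum, of male BM-252, lay above the lowest 18-month sum, of female BM-36. The 34 peaks of the Igh D, J and C part summed to 369 to 455 CPM at 18 months and 363 to 410 CPM at 3 months, and overlapped as well.

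**Figure D2:**
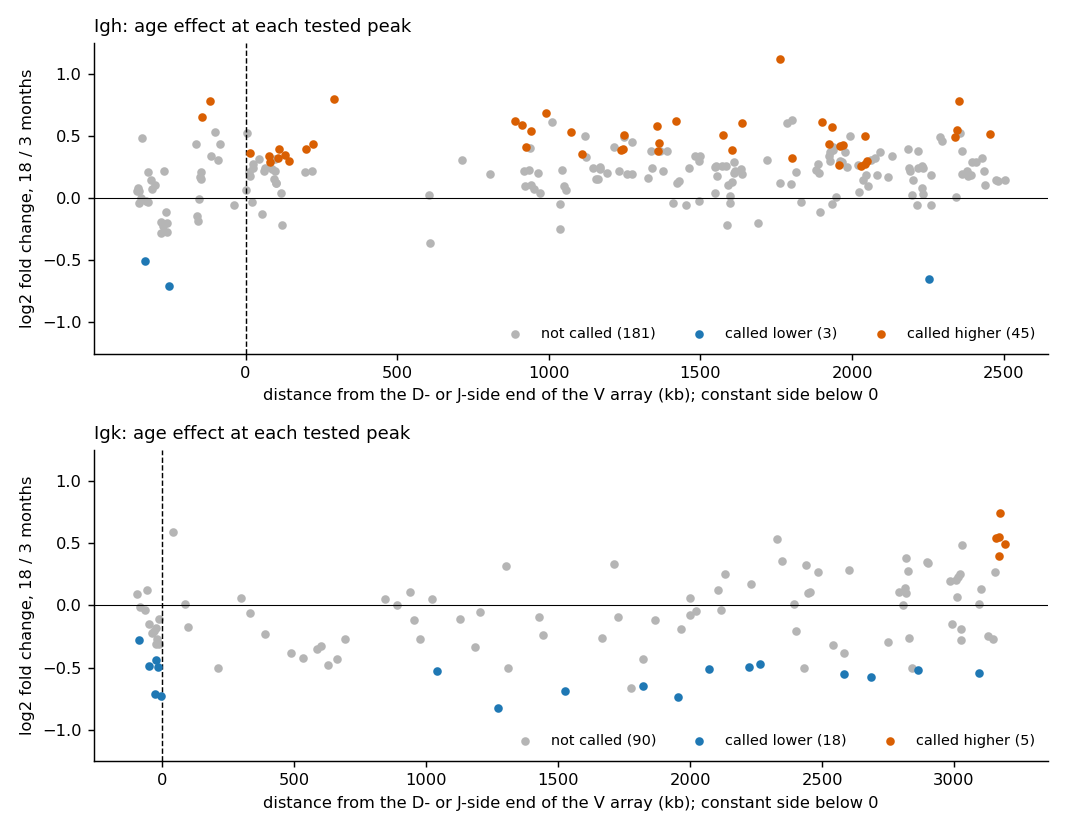
Log2 fold change with age (y axis) of each tested Igh and Igk peak against its distance in kb from the end of the V array that faces the D or J segments (x axis), with the constant side below 0. Igh peaks lie mostly above 0 along the whole array, and the called Igk peaks lie below 0 except for 5 at the outer edge.

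The rise was found in every section of the Igh V array. With the array divided into 3 sections of equal length, 10 of 35 tested peaks rose in the section nearest to the D segments, 16 of 73 in the middle and 16 of 81 in the farthest one. Peaks over an annotated V segment rose in 17 of 70 cases and peaks between segments in 25 of 119. By the family of the nearest segment, 27 of 122 peaks near Ighv1, 7 of 11 near Ighv2, 3 of 20 near Ighv5 and 3 of 27 near Ighv8 rose. Ighv1 is the largest family of the array and lies far from the D segments, while Ighv2 and Ighv5 lie close to them. All 11 peaks near Ighv2 segments had a log2 fold change above 0, with a median of 0.33. Peaks at or above the median level of all tested peaks rose in 31 of 87 cases and weaker ones in 11 of 102, while the medians of their log2 fold changes were 0.26 and 0.25.

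The most accessible peak of the Igh V part was chr12:113713386-113719577, which covers Ighv2-6. It stood at lowest 122, median 151 and highest 184 CPM at 18 months, and at lowest 85.3, median 128 and highest 135 CPM at 3 months. The ages overlapped only in part. It rose by 0.30 ± 0.09 (SE) on the log2 scale (adjusted p = 0.018), and the call was lost without the 18-month male BM-38 (adjusted p = 0.0659) or BM-39 (0.0508) and with females alone (0.318), over a range of 2.9e-05 to 0.318.

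Other Igh V peaks separated the ages fully. The wide peak chr12:114807364-114813072 over Ighv1-28 and Ighv1-29, chosen after its values were seen, stood at lowest 69.1, median 76.5 and highest 90.4 CPM at 18 months. At 3 months it was at lowest 48.9, median 53.5 and highest 68.0 CPM, so that each older mouse lay above each younger one. It rose by 0.38 ± 0.09 (SE, log2; adjusted p = 0.0017). Ighv1-28 is annotated as a pseudogene, a V segment that cannot encode a chain.

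The V segment Ighv1-47 lies in the peak chr12:114990899-114991778, also chosen after its values were seen. Levels were lowest 9.22, median 11.4 and highest 14.2 CPM at 18 months against lowest 5.26, median 6.88 and highest 8.98 CPM at 3 months, with no overlap. Its log2 fold change was 0.62 ± 0.14 (SE; adjusted p = 0.00139). In total 13 of the 191 tested Igh V peaks separated the ages toward higher values and 0 toward lower ones, against 3.74% and 3.99% of all tested peaks.

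The highest log2 fold change of all members, 1.11 ± 0.29 (SE; adjusted p = 0.0037), belonged to the weak peak chr12:115336750-115337256 near Ighv1-59. It and the next were chosen after their values were seen. Its levels were lowest 1.68, median 2.77 and highest 3.00 CPM at 18 months and lowest 0.632, median 1.13 and highest 1.77 CPM at 3 months. The ages overlapped slightly at these low counts. The single Igh V peak that fell was chr12:115827865-115828322 near Ighv1-75, with a log2 fold change of -0.65 ± 0.23 (SE; adjusted p = 0.0377). It was weak as well, at lowest 1.69, median 2.34 and highest 3.96 CPM at 18 months against lowest 2.35, median 3.97 and highest 5.47 CPM at 3 months. Without any 1 of females BM-36, BM-42, BM-244 and BM-245 or males BM-39, BM-40 and BM-252 it was no longer called, and 0 peaks of the part fell.

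On the other side of the array the Igh D, J and C part held 34 tested peaks, of which 2 rose and 2 fell. Each was 5.88%, against 9.43% and 11.6% of all tested peaks. With library totals 5 rose (14.7%) and 2 fell, against 14.9% and 8.82%. With offsets smoothed on abundance or on peak width 4 rose (11.8%) and 2 fell, against 9.53% and 10.4% or 8.44% and 9.51%. The clearest rise was where D and J segments meet, which is where the first joining step takes place. The peak chr12:113429684-113430617 covers Ighj1 and the last D segment before it, Ighd4-1. The libraries stood at lowest 9.06, median 12.7 and highest 14.5 CPM at 18 months and at lowest 6.62, median 7.43 and highest 8.74 CPM at 3 months. All 6 older mice lay above all 6 younger ones. The log2 fold change was 0.65 ± 0.13 (SE; adjusted p = 0.00033), with 0.59 in females and 0.71 in males, and it was called under all 21 alternatives.

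The other Igh peak on this side that rose covers the D segment Ighd2-7 (chr12:113456732-113457070) and was chosen after its values were seen. It stood at lowest 3.53, median 3.65 and highest 5.999 CPM at 18 months against lowest 1.68, median 2.49 and highest 2.99 CPM at 3 months, again with no overlap. Its age effect as log2 fold change was 0.78 ± 0.22 (SE; adjusted p = 0.00715). Both peaks of the part that separated the ages thus covered D or J segments.

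The intronic enhancer of Igh lies between the J segments and Ighm, the gene of the IgM heavy chain. That interval held 2 peaks. The stronger, chr12:113426367-113428926, reaches over Ighj4. Levels were lowest 23.3, median 38.3 and highest 41.2 CPM at 18 months against lowest 26.8, median 29.7 and highest 34.3 CPM at 3 months. The older mice thus spanned the whole range of the younger ones. Its log2 fold change of 0.15 ± 0.11 (SE) did not pass the test (adjusted p = 0.354), with 0.42 in females and -0.13 in males. With offsets smoothed on abundance (0.30, adjusted p = 0.0258) or on peak width (0.34, 0.0201), and with females alone (0.42, 0.00768), it passed. Over all alternatives the adjusted p was 0.00768 to 0.723. The weaker peak, chr12:113425252-113426024, stood at lowest 9.91, median 13.0 and highest 15.2 CPM at 18 months against lowest 8.53, median 10.5 and highest 13.5 CPM at 3 months. The ages overlapped, and its log2 fold change of 0.21 ± 0.13 (SE; adjusted p = 0.288), with 0.27 in females and 0.14 in males, did not pass.

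The peak over Ighm itself, chr12:113420021-113425064, had a log2 fold change of 0.17 ± 0.10 (SE; adjusted p = 0.219), and the peak over Ighd, the IgD gene, one of 0.43 ± 0.17 (SE; adjusted p = 0.0601). Neither passed. The first passed with both smoothed offsets (adjusted p = 0.000165 and 0.00026), with library totals (0.0234), with females alone (0.00375) and without the 3-month male BM-253 (0.0418), over a range of 0.000165 to 0.842. The second passed in 5 of 21 alternatives, over a range of 0.0291 to 0.24.

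Behind Igha, the IgA gene, lies the 3 prime regulatory region of Igh, which drives class switching and high expression in late B cells. The most accessible peak there and of the whole D, J and C part, chr12:113221485-113224364, stood at lowest 46.0, median 59.3 and highest 70.2 CPM at 18 months against lowest 49.0, median 55.8 and highest 66.2 CPM at 3 months. The ages overlapped almost fully, and its log2 fold change was -0.04 ± 0.10 (SE; adjusted p = 0.842). By sex it was 0.22 in females and -0.30 in males, a difference that did not pass the adjustment (adjusted p = 0.322, unadjusted 0.00551). A weaker peak of the same stretch, chr12:113240915-113241889, lies 14802 bp behind Igha and fell by 0.51 on the log2 scale (SE 0.13, adjusted p = 0.00358), and males alone did not call it (0.202, over a range of 0.00103 to 0.202). Its levels were lowest 8.03, median 10.0 and highest 11.4 CPM at 18 months and lowest 10.8, median 13.0 and highest 15.7 CPM at 3 months.

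The larger fall in Igh was at chr12:113321009-113321566, 5254 bp from Ighg1, the IgG1 gene. The libraries stood at lowest 5.09, median 7.00 and highest 10.1 CPM at 18 months against lowest 9.195, median 11.4 and highest 13.5 CPM at 3 months. The ages overlapped by a narrow margin. The log2 fold change was -0.71 ± 0.15 (SE; adjusted p = 0.000477), with -0.33 in females and -1.15 in males. A fit of females alone did not call it (adjusted p = 0.206, over a range of 0.000143 to 0.206).

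**Figure D3:**
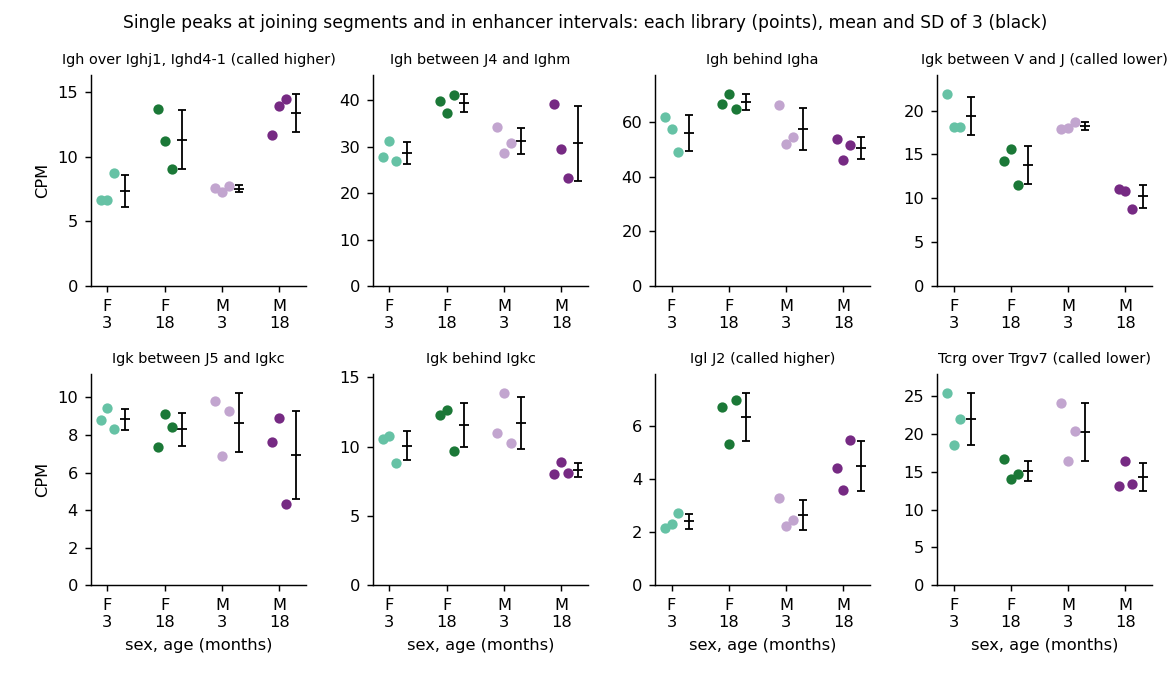
CPM of each library (points) by sex and age in months (x axis), with the mean and SD of 3 libraries in black, for 8 peaks at D and J segments, in enhancer intervals and over Trgv7. The Igh peak over Ighj1 and Ighd4-1 is higher and the Igk peak between V and J lower in each 18-month library than in any 3-month library, while the peaks in the intervals of the intronic and 3 prime enhancers overlap.

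Igk encodes the light chain that most mouse B cells use, and it is rearranged after Igh. Of 113 tested Igk peaks 5 rose (4.42%) and 18 fell (15.9%), against 9.43% and 11.6% of all tested peaks, and the median log2 fold change was -0.12. With library totals 7 rose (6.19%) and 13 fell (11.5%), against 14.9% and 8.82% of all tested peaks, and the median was -0.04. Within the V array 0 of 89 tested peaks rose and 12 fell (13.5%), and in the J and C part 0 of 15 rose and 5 fell. The median log2 fold changes were -0.11 in the array and -0.27 in the J and C part. Over all tested peaks 11.6% were called lower, so the share of the array was close to the background with TMM factors, and also with library totals (8 of 89, 8.99%, against 8.82%). With offsets smoothed on abundance it was 18 of 89 (20.2%) against 10.4%, and with those smoothed on peak width 17 of 89 (19.1%) against 9.51%. Without peaks of other genes, 17 Igk peaks fell. That count dropped to 11 without the 18-month male BM-39 and also without male BM-40.

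The J and C part of Igk separated the ages when its 15 peaks were summed. The sums were lowest 110, median 126 and highest 139 CPM at 18 months and lowest 144, median 146 and highest 149 CPM at 3 months. In females they averaged 135 ± 2.77 CPM (SD, n = 3) at 18 months against 147 ± 2.14 CPM (SD, n = 3) at 3 months, and in males 115 ± 4.83 (SD, n = 3) against 146 ± 1.91 CPM (SD, n = 3). All 6 older mice lay below all 6 younger ones. This full separation rests on the peak chr6:70709204-70710264, described next. Without it the sum of the 18-month female BM-42 lay above those of some 3-month mice, among them female BM-245. The V part, in contrast, summed to 440 to 548 CPM at 18 months and 468 to 554 CPM at 3 months. It showed no separation.

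**Figure D4:**
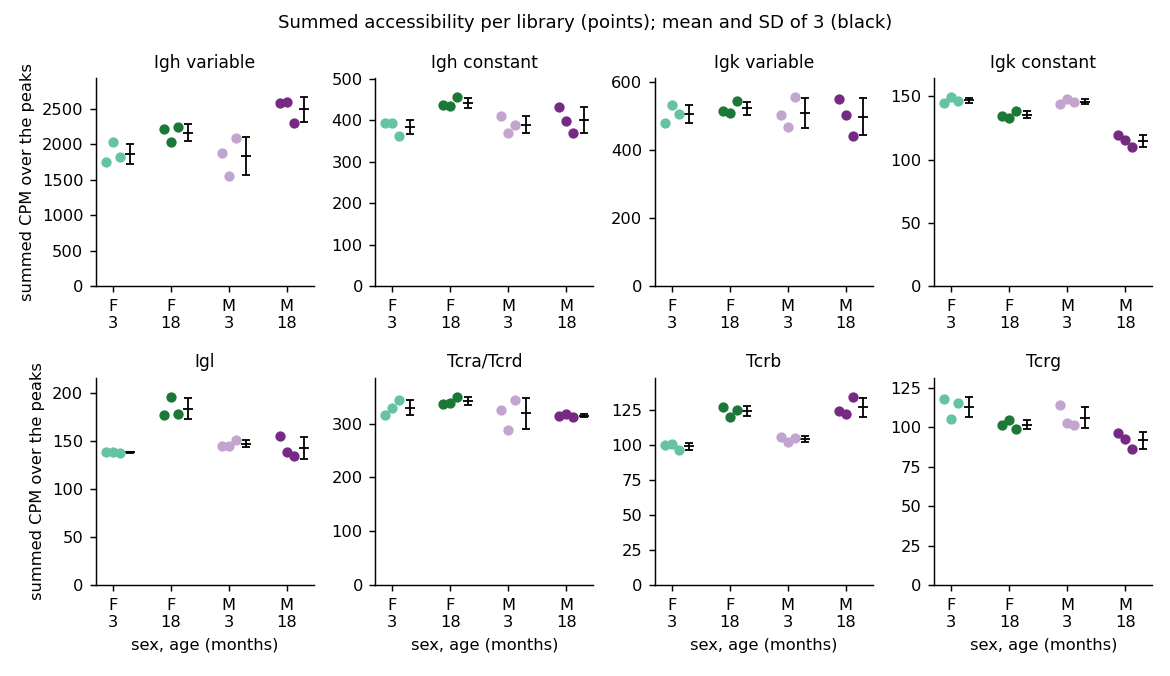
Summed CPM over the peaks of a locus or part in each library (points), by sex and age in months, with the mean and SD of 3 libraries in black and each y axis starting at 0. The Igk constant part and Tcrb separate the ages in both sexes, while Igl separates the ages in females and not in males.

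The largest fall in Igk among the stronger peaks was in the interval between the V and J segments. This interval is known for the Cer and Sis elements, which bind CTCF and govern how the V array meets the J segments. Whether the peak chr6:70709204-70710264 is one of them was not examined. It lies 5557 bp from Igkv3-1, the V segment nearest to the J segments, and is the most accessible peak of the J and C part. It stood at lowest 8.74, median 11.3 and highest 15.7 CPM at 18 months against lowest 17.9, median 18.1 and highest 21.9 CPM at 3 months. Each older mouse lay below each younger one. Its age effect as log2 fold change was -0.73 ± 0.12 (SE; adjusted p = 1.06e-05), with -0.53 in females and -0.94 in males. It was called under all 21 alternatives.

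The 4 other peaks of the Igk J and C part that fell lie on both sides of Igkc, the gene of the kappa constant region. The peak chr6:70718583-70719185 holds the Gm46961 promoter printed above and lies 3678 bp from Igkj1, and it was chosen after its values were seen. Levels were lowest 4.22, median 4.44 and highest 7.47 CPM at 18 months and lowest 6.22, median 6.85 and highest 8.65 CPM at 3 months. The ages overlapped, and its log2 fold change was -0.50 ± 0.16 (SE; adjusted p = 0.0246). The peak chr6:70728175-70729676 holds the Gm30211 promoter and lies 2172 bp from Igkc. Its levels were lowest 9.56, median 10.3 and highest 13.7 CPM at 18 months against lowest 12.7, median 14.1 and highest 15.1 CPM at 3 months, with a small overlap. Its log2 fold change was -0.44 ± 0.12 (SE; adjusted p = 0.00691).

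Farther behind Igkc, chr6:70730879-70731201 was lower by a log2 fold change of -0.72 ± 0.18 (SE; adjusted p = 0.00283). Its values were lowest 3.26, median 3.65 and highest 5.11 CPM at 18 months and lowest 4.84, median 6.14 and highest 7.16 CPM at 3 months. The peak chr6:70751824-70752855, 25586 bp behind the gene, had a log2 fold change of -0.49 ± 0.14 (SE; adjusted p = 0.0085). Both overlapped between the ages in a few libraries. Females alone did not call either (adjusted p = 0.187 and 0.221), and males alone did not call the Gm30211 peak (0.23). These were the highest adjusted p of the alternatives of each peak, and the lowest were 0.000595, 0.00169 and 0.00343.

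The kappa enhancers lie between the J segments and Igkc and at more than one place behind it. In the first interval, chr6:70724158-70725181 and chr6:70725676-70726590 had log2 fold changes of -0.27 ± 0.15 (SE; adjusted p = 0.202) and -0.18 ± 0.13 (SE; adjusted p = 0.359). Behind Igkc, the peaks at 9055 and 17330 bp had -0.21 ± 0.14 (SE; adjusted p = 0.31) and -0.22 ± 0.15 (SE; adjusted p = 0.311). None of these 4 passed the test over both sexes. The pair behind Igkc went different ways in the sexes, with 0.16 and 0.19 in females and -0.61 (adjusted p = 0.0247) and -0.70 (0.0143) in males, and the difference between the sexes did not pass the test (adjusted p = 0.309 and 0.268). A fit of the male libraries only called the last of the 4 (adjusted p = 0.0404, against up to 0.639 in the other alternatives). Of the 15 peaks of the part, 13 had a log2 fold change below 0.

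Along the Igk V array the calls were spread thinly. Of the 12 peaks that fell, 7 were among 47 over a V segment and 5 among 42 between segments. By section, 6 of 46 fell in the section farthest from the J segments, 5 of 22 in the middle and 1 of 21 in the nearest. In the middle section 19 of 22 peaks had a log2 fold change below 0. By family, all 6 peaks near Igkv13 segments lay below 0, with a median log2 fold change of -0.58. Their median level was 3.48 CPM, and 2 of them fell. The 18 near Igkv14 had a median of 0.12 and 0 of them fell. Between these 2 lay Igkv1 (-0.38), Igkv8 (-0.35), Igkv4 (-0.11), Igkv12 (0.03) and Igkv2 (0.03). Differences between families were not tested. The lowest log2 fold change of the array was -0.83 ± 0.22 (SE; adjusted p = 0.00562) at chr6:69432289-69432716, 5716 bp from Igkv4-59, a peak chosen after its values were seen.

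The strongest Igk V peak that fell, chr6:67609359-67610647 over Igkv1-135, was chosen after its values were seen. The libraries stood at lowest 6.13, median 9.25 and highest 11.1 CPM at 18 months against lowest 10.7, median 11.9 and highest 15.5 CPM at 3 months. The ages overlapped at the edge, and its log2 fold change was -0.55 ± 0.14 (SE; adjusted p = 0.00259). The most accessible Igk V peak, chr6:67573815-67575065, had -0.25 ± 0.12 (SE; adjusted p = 0.124) and did not pass.

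The 5 Igk peaks that rose, of which 4 were chosen after their values were seen, all lay outside the V array, beyond Igkv2-137, the V segment farthest from the J segments. The strongest change was at chr6:67531096-67532015, with lowest 10.2, median 14.6 and highest 16.0 CPM at 18 months against lowest 6.32, median 7.62 and highest 8.92 CPM at 3 months. The ages did not overlap, and its log2 fold change was 0.74 ± 0.13 (SE; adjusted p = 2.95e-05), called under all 21 alternatives. Of the others, chr6:67510662-67511174 and chr6:67544573-67545175 had log2 fold changes of 0.50 and 0.54. Outside other genes 3 Igk peaks rose, and 5 without the 3-month male BM-252. With library totals 2 of 89 tested peaks within the array were called higher too (2.25%), against 14.9% of all tested peaks. At the opposite edge of the window, the wide peak chr6:70789783-70794824 at the promoter of Rpia, a pentose phosphate enzyme gene, fell by 0.28 on the log2 scale (SE 0.09, adjusted p = 0.0195). That call was lost without the 18-month male BM-39 (adjusted p = 0.0745), in either sex alone (0.338 and 0.0573) and with either smoothed offset (0.659 and 0.739), over a range of 0.00488 to 0.739.

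Igl, the second light chain locus, is small, with few V segments and several J and C pairs. Of its 22 peaks 3 rose (13.6%) and 0 fell, against 9.43% and 11.6% of all tested peaks. All 3 were at J or C segments, and the median log2 fold change was 0.12. The peak over Iglj2, chr16:19199925-19200432, stood at lowest 3.60, median 5.40 and highest 7.01 CPM at 18 months against lowest 2.17, median 2.39 and highest 3.31 CPM at 3 months. In CPM without TMM factors the ages did not overlap. The log2 fold change was 1.01 ± 0.20 (SE; adjusted p = 0.000213), with 1.35 in females and 0.64 in males.

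The peak chr16:19064402-19065059, 634 bp from Iglc3, stood at lowest 6.75, median 7.10 and highest 11.6 CPM at 18 months against lowest 2.23, median 4.04 and highest 6.42 CPM at 3 months. In CPM without TMM factors the ages did not overlap here either, and the log2 fold change was 0.80 ± 0.18 (SE; adjusted p = 0.000699). The peak over Iglj3, chr16:19066835-19067251, had 0.72 ± 0.19 (SE; adjusted p = 0.00502), with 1.29 in females and 0.12 in males. A fit of the male libraries only called 0 of the 22 peaks and one of the female libraries only 5. In the males the 3 adjusted p of that fit were 0.196, 0.0616 and 0.828, the highest over the alternatives of each peak. The fit of the 4 groups, which shares 1 estimate of the spread, called 4 peaks higher in females and 1 higher and 1 lower in males, the higher one being that by Iglc3 (0.75, adjusted p = 0.0438).

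The sum over the 22 Igl peaks was 184 ± 10.8 CPM (SD, n = 3) in 18-month against 139 ± 0.469 CPM (SD, n = 3) in 3-month females. In males it was 143 ± 11.2 (SD, n = 3) against 147 ± 3.61 CPM (SD, n = 3). The females' ages were far apart, and the males' overlapped. Of the 22 peaks, 15 had a log2 fold change above 0 in females and not in males, and 0 the reverse. The interaction test called none of them, and the 8 with an unadjusted p under 0.05 did not pass the adjustment. The older females and the older males were also sequenced in different runs.

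At Tcra/Tcrd, which encodes the alpha and delta chains, 1 of 41 tested peaks rose (2.44%) and 2 fell (4.88%), with a median log2 fold change of -0.02. Both shares were below those of all tested peaks, 9.43% and 11.6%. The larger fall was at chr14:54070146-54071393, 4234 bp from the delta segment Trdv4. It stood at lowest 4.39, median 5.97 and highest 9.25 CPM at 18 months against lowest 7.83, median 10.1 and highest 12.1 CPM at 3 months. The ages overlapped in part, and the log2 fold change was -0.72 ± 0.16 (SE; adjusted p = 0.000662), called under all 21 alternatives. The other, chr14:53795007-53795894 at Trav13-5, stood at lowest 5.96, median 7.59 and highest 8.74 CPM at 18 months and lowest 9.19, median 10.2 and highest 10.9 CPM at 3 months. It separated the ages, with -0.49 ± 0.13 (SE; adjusted p = 0.00562), and males alone did not call it (0.215, over a range of 0.00244 to 0.215).

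The alpha enhancer lies behind Trac, the alpha constant gene. The strong peak in that stretch, chr14:54225760-54228536, stood at lowest 35.99, median 45.8 and highest 55.8 CPM at 18 months against lowest 37.7, median 44.2 and highest 47.2 CPM at 3 months. The younger mice lay within the range of the older ones, and the log2 fold change was 0.01 ± 0.10 (SE; adjusted p = 0.951). It was 0.27 in females and -0.26 in males, and this difference did not pass the adjustment either (adjusted p = 0.301, unadjusted 0.00407). The peak over Trac had 0.32 ± 0.19 (SE; adjusted p = 0.235) and did not pass. The peak that rose, chr14:54233196-54234323, lies 9562 bp behind Trac toward Dad1, a ubiquitous gene of protein glycosylation. It had 0.47 ± 0.14 (SE; adjusted p = 0.00934), with 0.77 in females and 0.16 in males. Its call was lost without the 3-month female BM-243 (adjusted p = 0.0503) and with males alone (0.652, over a range of 0.00013 to 0.652).

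At Tcrb, the beta chain locus, 2 of 17 peaks rose (11.8%) and 0 fell, against 9.43% and 11.6% of all tested peaks. The median log2 fold change was 0.24, with 14 of 17 above 0. The beta enhancer lies between Trbc2 and Trbv31, a V segment behind the C genes. The peak in that interval, chr6:41554177-41555022, stood at lowest 7.76, median 10.6 and highest 14.3 CPM at 18 months against lowest 5.47, median 6.75 and highest 8.65 CPM at 3 months. The ages overlapped in part. Its age effect as log2 fold change was 0.55 ± 0.15 (SE; adjusted p = 0.00622), with 0.89 in females and 0.17 in males, and males alone did not call it (0.684, over a range of 6.82e-05 to 0.684).

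The other Tcrb peak that rose, chr6:41018414-41019618, lies 28540 bp from Trbv2. Levels were lowest 9.33, median 10.1 and highest 12.3 CPM at 18 months against lowest 5.92, median 7.601 and highest 8.53 CPM at 3 months, with no overlap. Its log2 fold change was 0.39 ± 0.14 (SE; adjusted p = 0.0328), and it lost its call in 9 of 21 alternatives (adjusted p up to 0.274), among them the fits without the 18-month female BM-35, males BM-39 and BM-40, the 3-month female BM-245 and males BM-251 and BM-252. The 6 adjusted p without 1 of these libraries were 0.0563, 0.0916, 0.0508, 0.0664, 0.0724 and 0.104. Summed over the locus, Tcrb stood at lowest 120, median 124 and highest 134 CPM at 18 months and lowest 96.3, median 101 and highest 106 CPM at 3 months. All older mice lay above all younger ones.

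At Tcrg, the gamma chain locus, 0 of 9 peaks rose and 1 fell (11.1%), against 9.43% and 11.6% of all tested peaks. Of the 9, 8 had a log2 fold change below 0. The peak that fell, chr13:19177565-19179085 over Trgv7, is the most accessible one near a V segment. Its levels were lowest 13.1, median 14.3 and highest 16.6 CPM at 18 months against lowest 16.4, median 21.2 and highest 25.4 CPM at 3 months. Only the edges of the ages overlapped in CPM without TMM factors. The log2 fold change was -0.60 ± 0.12 (SE; adjusted p = 0.000132), with -0.58 in females and -0.61 in males, and it was called under all 21 alternatives. The peak 3504 bp from Trgc1, a C gene with an enhancer behind it, had -0.28 ± 0.12 (SE; adjusted p = 0.0897).

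In the fit of the 4 groups of age and sex, 17 of 431 members were called higher and 7 lower with age in females, against 11.9% of all tested peaks called either way. In males 30 of 431 were called higher and 19 lower, against 11.4% of all tested peaks called either way. Taken both ways, the members' share was below that of all tested peaks in females and close to it in males. The members' counts moved widely when 1 library was left out. In females the higher ones became 7, 4, 9 and 7 without mice BM-35, BM-36, BM-244 and BM-245, and the lower ones 3, 2, 3, 3 and 2 without mice BM-35, BM-36, BM-42, BM-243 and BM-245. In males the higher ones became 10, 15, 19, 52 and 16 without mice BM-38, BM-39, BM-251, BM-252 and BM-253, and the lower ones 12, 7, 7 and 12 without mice BM-39, BM-40, BM-251 and BM-253. The counts within a sex thus rest on single mice. Of 431 members, 204 (47.3%) had a log2 fold change above 0 in both sexes and 85 (19.7%) below 0 in both, against 35.2% and 31.0% of all tested peaks. In the Igh V part 130 of 191 lay above 0 in both sexes, and in the J and C part of Igk 11 of 15 lay below 0 in both. In these 2 parts the sexes thus mostly shared 1 direction.

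**Figure D5:**
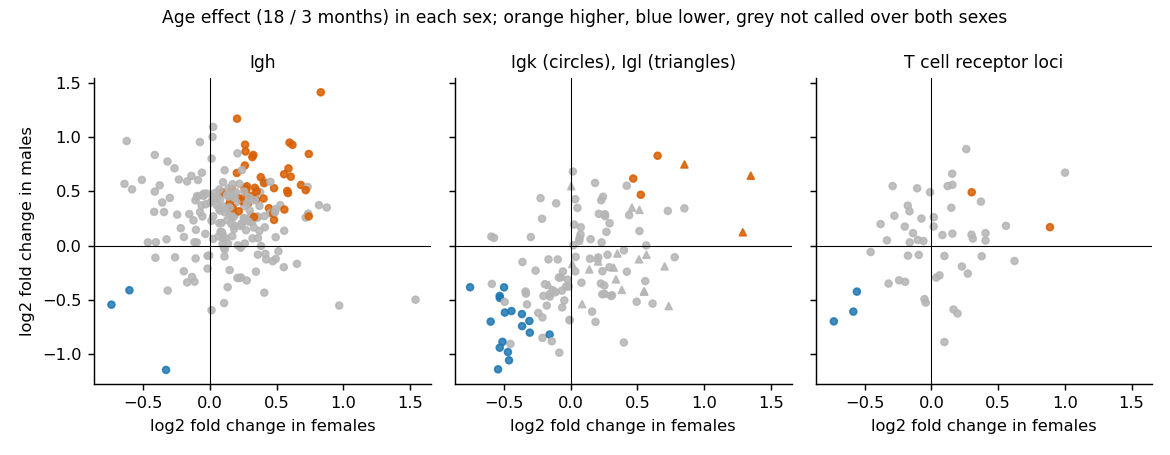
Log2 fold change with age in females (x axis) and in males (y axis) of each tested member outside other genes, coloured by the call over both sexes (orange higher, blue lower, grey not called). Igh points lie mostly above 0 in both sexes (147 of 229 with other genes included), and 15 of 22 Igl points lie above 0 in females and not in males.

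The test of the difference between the sexes' age effects called 0 members, and 0.00532% of all tested peaks. An unadjusted p under 0.05 was found for 59 members (13.7%) and for 7515 of all tested peaks (10.0%). Without the 3-month male BM-252 it called 11 members. For sex itself 0 members and 0.162% of all tested peaks were called. Here an unadjusted p under 0.05 was found for 29 members (6.73%) and for 5688 of all tested peaks (7.57%), so the members' share did not exceed the background. Without the 3-month male BM-253 1 member was called. A fit with sequencing run as a block, which was added after seeing the data and takes sex from runs 29 and 31 with mice of both, called 0 members and 0.0545% of all tested peaks, with an unadjusted p under 0.05 for 23 members (5.34%) and 5.28% of all tested peaks. No difference between females and males was thus established at any receptor peak with all 12 libraries.

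The genes that rearrange and fold these loci were taken from lists, with 1 peak for each gene. Of 14 recombinase and joining genes 4 fell and 0 rose, with a median log2 fold change of -0.20. The recombinase genes Rag1 and Rag2, which cut at the segments, had 0.15 (adjusted p = 0.632) and 0.28 (0.101), and Dntt, which adds bases at the joints, had -0.22 (0.214). The members that fell were the end joining genes Xrcc6 (-0.34, adjusted p = 0.0104), Nhej1 (-0.24, 0.0409) and Polm (-0.43, 0.00567), and Hmgb1 (-0.63, 3.11e-05), whose protein bends DNA for the recombinase. With TMM factors the cutting enzyme's own genes were thus not among those that passed. In this list 1 gene was called higher with library totals, 2 with offsets smoothed on abundance and 1 with those smoothed on peak width. Which genes these were is not given here.

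Of 7 genes for locus contraction and looping 5 fell and 0 rose: Ctcf, Smc3, Yy1, Wapl and Nipbl. Ctcf, the factor that anchors loops, stood at lowest 52.9, median 68.2 and highest 72.2 CPM at 18 months against lowest 79.9, median 85.3 and highest 90.6 CPM at 3 months. The ages did not overlap, and its log2 fold change was -0.47 ± 0.09 (SE; adjusted p = 9.94e-05).

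Of 11 B lineage factor genes 6 fell and Irf4 rose. Pax5, which commits cells to the B lineage, had -0.39 (adjusted p = 0.0132) and Ikzf1 -0.55 (2.12e-05), while Ebf1 had -0.02 (0.94) and Irf4, which acts at the light chain enhancers, 0.37 (0.0217). Of 6 T lineage factor genes with a peak Tcf12 fell and 0 rose. Of 9 genes for receptor partners with a peak Vpreb3 fell and Cd3d rose, and Vpreb1, part of the surrogate light chain of the pre-B cell receptor, had 0.00 (adjusted p = 0.99). The 5 lists held 47 genes with a peak, of which 17 fell (36.2%) and 2 rose (4.26%), against 11.6% and 9.43% of all tested peaks. This balance depended on the scaling: 9 fell and 6 rose with offsets smoothed on abundance, 6 and 4 with those smoothed on peak width, and 15 and 3 with library totals. Hmgb1, Polm, Ctcf, Yy1, Wapl and Ikzf1 fell with TMM factors and with each of these 3 scalings. The calls of Xrcc6, Nhej1, Smc3 and Nipbl and of 4 B lineage factor genes were lost with both smoothed offsets, and those of Pax5, Tcf12 and Vpreb3 with the offsets on peak width. With library totals Nhej1 and the B lineage factor gene Pou2af1 were not called. Erythroid marker peaks fell in the same libraries, and the part of that shift in the lists was not tested.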

How the data were processed

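ATAC-seq reads of 12 bone marrow libraries had been turned by the authors into a deposited table of read counts per consensus peak, and the values were whole-number counts of at least 1, not normalised. The submitters' processing notes name Trimmomatic, BWA, MACS2, DiffBind and edgeR and the build mm10, which has the coordinates of GRCm38. Versions, duplicate removal and read shifting are not given in the sources used here. Members, gene lists and tests were chosen with earlier results of these data known.

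Peaks with a CPM above 1 in at least 2 libraries were kept (75164 of 75281). They were fitted in edgeR 4.0.16 (R 4.3.3) with TMM factors and a quasi-likelihood F-test on age and sex. Benjamini-Hochberg adjustment ran over all tested peaks, with a threshold of 0.05. A fit with the 4 groups of age and sex gave the age effect within each sex and the interaction. Standard errors were taken as the size of the log2 fold change divided by the square root of F. CPM is the count divided by the library's total in peaks, and 3 counts were 0.235 to 0.391 CPM. The script was tested on simulated data. Summed CPM over a part was described without a test.

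RefSeq segments of GRCm38.p6 gave the parts. In Igh, Igk, Tcra/Tcrd and Tcrb the variable part ran up to the V segment nearest the D or J segments. The rest was constant (D, J, C, enhancer intervals). In Igl and Tcrg, whose V, J and C segments alternate, a peak took the kind of its nearest segment. A peak centred inside a protein-coding gene that is no receptor segment counted as other gene. So did a peak within 2 kb of such a gene and nearer to it than to any segment. Distances run from the peak centre. The gene table gave no exons and no strand of counting. A list gene took its strongest peak within 3 kb. Peaks were named by a rule: the highest mean CPM of each locus and part, the 3 largest rises and falls among called members at or above the median level, every called member of a locus with 5 or fewer, the peaks at or within 5 kb of the C genes, and those between J and C or within 40 kb behind the last C gene. Others are said to be chosen after their values were seen. The alternatives were library totals, offsets smoothed on abundance or peak width, no filter, a stricter filter, DESeq2 1.42.0, age alone, each sex alone and each library left out. A fit of sex with sequencing run as a block was added after seeing the data. The p-values measure the spread between these mice only. All 12 libraries were used, and replicate libraries differed beyond counting noise. A few list genes and gene-assigned peaks are not reported here.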

Additional observations from a re-analysis of the deposited data

Results flagged for a closer look

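In 7 of 168 groups of 6 mice of 1 age, 1 library stood far from the others, where chance gives about 1 in 20 groups. Among the Tcrb constant sums at 3 months, male BM-251 stood at 14.21 CPM and the others at 11.11 to 11.97. At the Igk peak between V and J (chr6:70709204-70710264), the 3-month female BM-245 stood at 21.92 CPM against 17.95 to 18.75. At chr6:70724158-70725181, between the Igk J segments and Igkc, the 18-month male BM-40 stood at 4.304 CPM against 7.387 to 9.093. Behind Igkc, the 18-month female BM-35 stood at 5.114 CPM against 3.261 to 3.955 at chr6:70730879-70731201. At chr6:70751824-70752855 the 3-month female BM-243 stood at 15.74 CPM against 9.474 to 11.36. The 18-month female BM-36 stood at 11.6 CPM against 6.747 to 8.219 at the peak by Iglc3 (chr16:19064402-19065059). At the Tcrb peak chr6:41018414-41019618, the 18-month male BM-39 stood at 12.26 CPM against 9.328 to 10.3. The age calls at the peak between V and J, at the pair behind Igkc and at the peak by Iglc3 remained when these libraries were left out, while the Tcrb call was lost without male BM-39 (adjusted p = 0.0916, over a range of 0.01 to 0.274).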

How the results depend on the processing

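No setting turned the direction of a called value. A fit of the female libraries only called 26 members higher and 9 lower and one of the male libraries only 22 and 12, against 56 and 24 with all libraries, and without 1 library the counts were 39 to 58 and 17 to 28. In the Igh V part, 43 higher became 11 and 18 with females and males alone and 26 to 44 without 1 library. Its 1 lower peak became 0 with either sex alone and with library totals, and 0 to 1 without 1 library. In Igk outside other genes, 3 higher became 1 in either sex alone, 5 with library totals and 2 to 5 without 1 library, and 17 lower became 4, 9 and 11 to 20. Igl had 5 higher peaks with females alone, 0 with males alone and 3 to 4 without 1 library, and its 0 lower peaks stayed 0. The T cell receptor loci outside other genes, at 2 higher, had 0 with males alone and 1 to 3 without 1 library, and their 3 lower peaks stayed 3 in each fit without 1 library. For the females in the fit of the 4 groups, library totals gave 26 higher, and 1 library less gave 4 to 24 higher and 2 to 9 lower. For the males they gave 59 higher and 10 lower, and 1 library less gave 10 to 52 and 7 to 25. The interaction called 0 to 11 and sex 0 to 1 without 1 library, and sex 0 with sequencing run as a block, a fit chosen after seeing the data. With TMM-scaled library sizes, the difference of summed CPM with age was -53.55 in place of -11.13 in Igk, 17.78 in place of 23.87 in Tcrb and 12.57 in place of 17.79 in its variable part. With parts by the nearest segment it was 0.6891 in place of 5.31 in the Tcrb constant part. The cause of these shifts was not tested beyond the fewer libraries in each fit. No paired analysis was possible because no mouse number occurs in more than 1 group, and no run holds both ages. Weak V peaks of 1 to 3 CPM rest on few reads, and V segments that resemble each other may share reads.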

Other observations

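Peaks were unevenly spread over the Igh V array. In bins of 250 kb, the stretch chr12:113822929-114072928 held 19 V segments and 2 peaks, and the next, chr12:114072929-114322928, held 19 V segments and 3 peaks. The first bin, nearest to the D segments, held 25 V segments and 30 peaks with a summed mean level of 590 CPM, and the remaining 7 bins held 12 to 25 V segments and 14 to 30 peaks. Along the Igk V array the bins from 69055636 to 70555635 bp on chr6 held 3 to 6 peaks with 12 to 16 V segments each, while the bin at the far end held 15 peaks with 9 segments. The last Igk bin, which reaches into the J and C part, held 10 segments and 21 peaks. In Igk the bins of 9 to 11 segments held 9 to 21 peaks, and those of 12 to 16 segments held 3 to 10. In Igh the bins of 12 to 14 segments held 26 to 30 peaks, and those of 19 to 25 held 2 to 30. More segments thus did not go with more peaks in these bins, and no association was tested. Mappability and the NZO sequence were not analysed here.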
